A study of Rattus norvegicus with 14 samples.

Results

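Neurotrophic factors are secreted proteins that keep sensory neurons alive, steer their axons and tune their excitability. The 9 ligand genes described here are Bdnf, Ntf3, Gdnf, Artn, Nrtn, Lif, Cntf, Igf1 and Vegfa, taken from the 30562 genes of the count and TPM tables by their gene names, and each name matched 1 gene. Wild type male rats gave the lumbar dorsal root ganglia (L2-L5), which hold the cell bodies of sensory neurons. In each rat a hindlimb muscle, the extensor digitorum longus, had been placed as a graft on the saphenous nerve, which carries skin sensation from the inner leg, on a single side. The surgical side was compared with the unoperated hindlimb of the same rat. There were 4 surgical libraries at 8 weeks (rats D, C, G and H) and 3 at 6 weeks (rats A, B and E), and the 7 control libraries came from the same rats at the same times. All rats carried the graft, so the control side is the other side of an operated animal, and the labels do not give an age.

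The ligands fall into families that share receptors. The neurotrophins Bdnf and Ntf3 bind the Trk receptor kinases and the low-affinity receptor Ngfr. Gdnf, Nrtn and Artn bind co-receptors of the Gfra family, which signal through Ret. Cntf and Lif are cytokines of the interleukin-6 family and signal through Il6st and Lifr, with Cntfr added for Cntf. Igf1 acts on the insulin-like growth factor receptor, and Vegfa on the endothelial receptors Kdr and Flt1 and on neuropilins. In sensory ganglia, Bdnf is known as a product of nociceptors and Cntf as an abundant product of myelinating Schwann cells. Target tissues such as muscle and skin are a source of several of these factors.

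The libraries held 21590793 to 28237574 estimated counts at 8 weeks and 18489118 to 21029173 at 6 weeks. Every 8-week library was thus deeper than every 6-week library. The part of depth in the differences between the times was not tested. All 16 markers of neurons, 12 of Schwann cells and 10 of satellite glia were detected in each group. Several libraries stood apart by other tissue. The mean of 12 skeletal muscle markers was 11.2 log2 CPM (counts scaled to library size) in surgical rat C, 8.74 in control rat H and 6.55 in surgical rat E. The mean of 13 spinal cord and central glia markers was 6.09 log2 CPM in surgical rat B. Neuronal markers were lowest in surgical rat A (6.6 log2 CPM) and control rat B (7.5), and Schwann cell markers were lowest in surgical rat C (6.14). These are bulk libraries, in which fewer cells of a type and less RNA per cell cannot be told apart. For the fitted differences of the ligands, results that rest on these rats are given with and without them. Marker lists, other named genes and ligand levels set against markers are given with all rats only.

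Read per length, as TPM (transcripts scaled to a fixed library total), the ligands spanned a wide range of levels. Cntf averaged 79.5 ± 41.3 TPM (SD, n = 14 libraries from 7 rats), which put it above 91.7% of the genes kept for testing. Igf1 averaged 19.5 ± 8.35 TPM, Vegfa 15.1 ± 4.5 TPM and Nrtn 12.3 ± 3.87 TPM. Bdnf averaged 3.37 ± 1.64 TPM. Ntf3 (0.621 ± 0.459 TPM), Artn (0.491 ± 0.267 TPM) and Lif (0.307 ± 0.373 TPM) lay at the 10.1, 8.01 and 4.85 percentiles, and Gdnf (0.166 ± 0.206 TPM) lay at the bottom. Within single libraries, Cntf stood above Igf1 in 13 of 14 libraries, and Nrtn stood above Bdnf in 14 of 14, with no overlap between their ranges. Igf1 stood above Vegfa in 9 of 14 libraries, Vegfa above Nrtn in 10 and Ntf3 above Artn in 8, so these neighbours did not differ beyond the spread of the libraries.

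**Figure D1:**
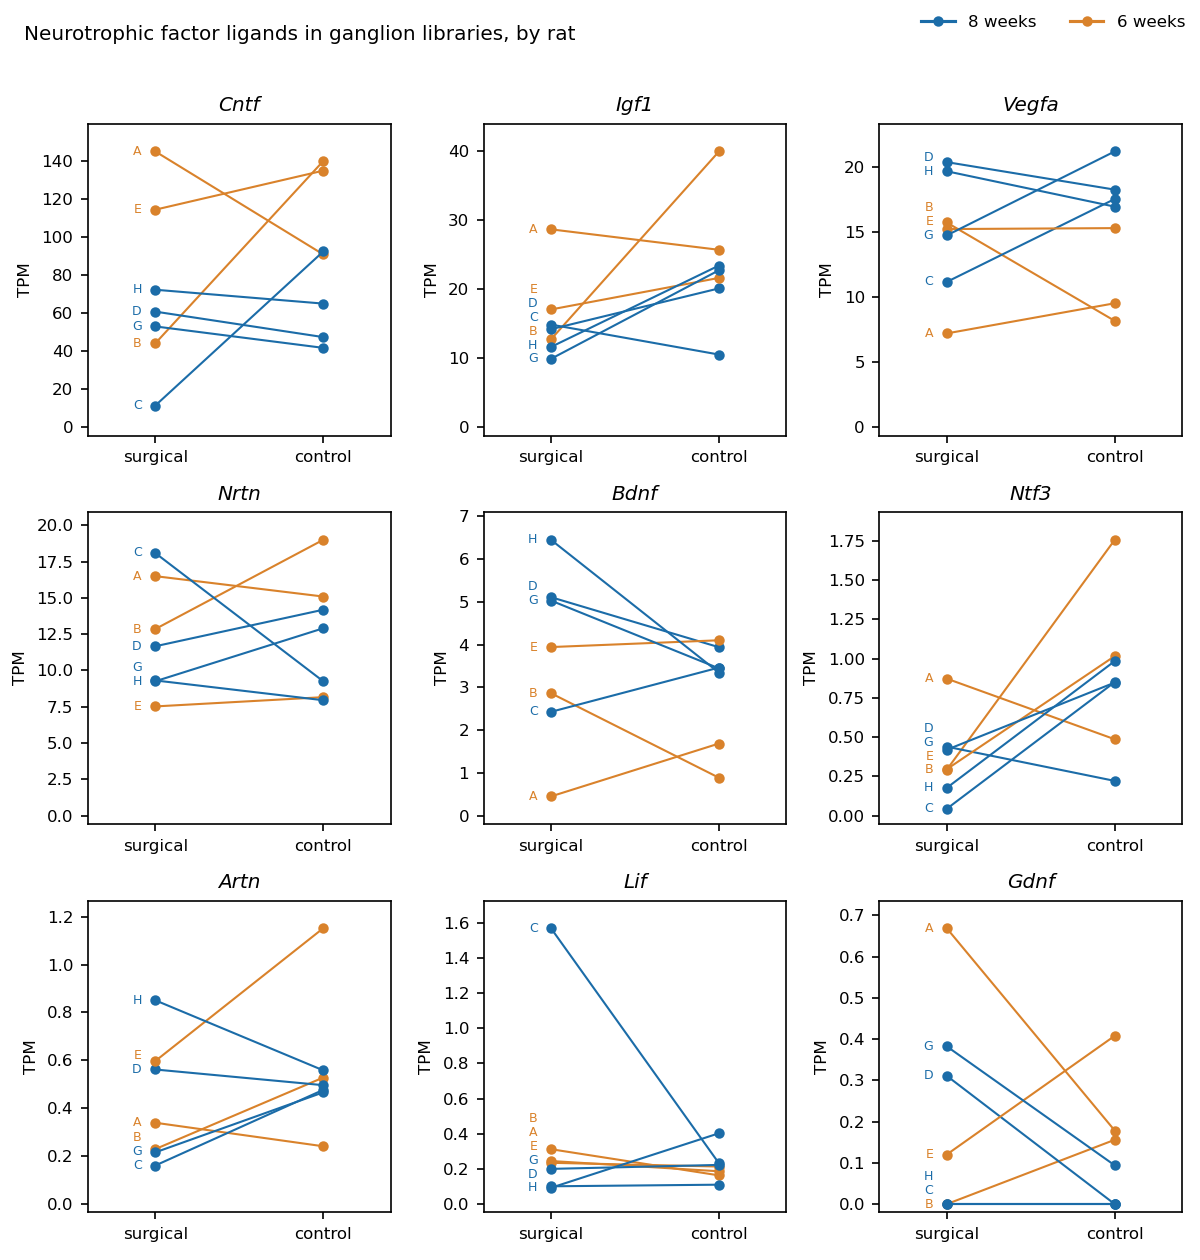
Level of each ligand in TPM (vertical axis, linear, a separate scale for each gene) in the surgical and the control library of each rat, joined by a line. Letters name the rats and are shifted upward where they would overlap, and colours give the time (8 or 6 weeks). No ligand moves the same way in all 7 rats, and Cntf and Lif of surgical rat C stand far from the other 8-week surgical libraries.

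The sides were compared within each rat. None of the 8 ligands that could be tested passed at an adjusted p under 0.05 over both times, at 6 weeks or at 8 weeks (edgeR quasi-likelihood test with the rat as a block, Benjamini-Hochberg adjustment over all genes). The share of all genes called was 0.0% of 17035 in each of these 3 comparisons, so the absence of calls holds for the whole transcriptome as much as for the ligands. At an unadjusted p under 0.05 there were 412, 546 and 180 genes, and none of them was a ligand. DESeq2 called 6 genes over both times, 44 at 6 weeks and 4 at 8 weeks, again with 0 ligands. The difference between the 8-week and the 6-week effects of the side also called 0.0% of genes (252 genes at an unadjusted p under 0.05, 5 by DESeq2) and 0 of 8 ligands. Over both times 2 ligands had a positive and 6 a negative log2 difference. Their median was -0.20, against 0.00038 over all genes tested.

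Among the neurotrophins, Bdnf, which activates TrkB, had 5.11, 2.43, 5.03 and 6.45 TPM in the 8-week surgical libraries of rats D, C, G and H, against 3.94, 3.46, 3.44 and 3.34 TPM in their controls. In the 6-week rats A, B and E it had 0.452, 2.86 and 3.94 TPM on the surgical side, against 1.69, 0.887 and 4.1 TPM on the control side. At 8 weeks 3 of 4 surgical libraries were above every control library and that of rat C was below them, and at 6 weeks the sides overlapped. The log2 difference of Bdnf (ENSRNOG00000047466) was 0.18 (SE 0.32, 95% interval -0.56 to 0.92, adjusted p = 1, edgeR) over both times, with 4 of 7 rats higher. It was 0.48 (SE 0.41) at 8 weeks and -0.28 (SE 0.51) at 6 weeks. Leaving out rats in turn gave 0.04 without rat B to 0.47 without rat A over both times, and without rats B, C and H the sign turned to -0.13.

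Ntf3, the ligand of TrkC on proprioceptors, gave the largest difference between the sides of the 8 ligands, but from few counts. It had 10, 1, 11 and 4 estimated counts in the 8-week surgical libraries of rats D, C, G and H, against 6, 17, 21 and 20 counts in their controls. In rats A, B and E it had 22, 7 and 5 counts on the surgical side at 6 weeks, against 13, 47 and 23 counts on the control side. The surgical side was lower in 5 of 7 rats and higher in rats A and D. The log2 difference of Ntf3 (ENSRNOG00000019716) was -1.33 (SE 0.62, 95% interval -2.75 to 0.09, unadjusted p = 0.063, adjusted p = 1, edgeR). It was -1.27 (SE 0.89) at 8 weeks and -1.42 (SE 1.01) at 6 weeks. Over both times it ranged from -1.74 without rat A to -1.0 without rat B, and it came to -0.25 without rats B, C and H. At 8 weeks it ranged from -2.04 without rat D to -0.69 without rat C, and at 6 weeks from -2.53 without rat A to -0.56 without rat B. At 8 weeks it came to 0.04 without rats B, C and H, which leaves rats D and G, whose differences had opposite signs.

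Of the GDNF family, Gdnf itself (ENSRNOG00000012819), a survival factor for Ret-expressing neurons, was too low to judge. It had 3, 0, 4 and 0 estimated counts on the surgical side at 8 weeks and 8, 0 and 1 at 6 weeks, against 0, 0, 1 and 0 at 8 weeks and 2, 2 and 4 at 6 weeks on the control side. It had 0 counts in 6 of 14 libraries, where a count of 0 still allows up to 3 counts, or 0.106 to 0.146 CPM at the depths of these 6 libraries, counting error only. The count filter removed it, and no fold is given.

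Nrtn (ENSRNOG00000048651), the ligand of Gfra2, was better covered, with 54 to 210 counts. It averaged 12.2 ± 3.93 TPM in surgical and 12.4 ± 4.12 TPM in control libraries (SD, n = 7 each), and the sides overlapped over nearly their whole range. Its log2 difference was -0.04 (SE 0.29, 95% interval -0.72 to 0.63, adjusted p = 1, edgeR; higher in 3 of 7 rats). It ranged from -0.28 without rat C to 0.16 without rat B, so its sign rested on single rats. Artn (ENSRNOG00000019842), the ligand of Gfra3 on nociceptors, had 4 to 17 counts in surgical and 6 to 25 counts in control libraries. It averaged 0.422 ± 0.254 TPM on the surgical and 0.56 ± 0.281 TPM on the control side. Its log2 difference was -0.48 (SE 0.37, 95% interval -1.32 to 0.36, adjusted p = 1, edgeR; higher in 3 of 7 rats), and -0.26 without rat B.

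Of the cytokines, Cntf (ENSRNOG00000012460) was the most abundant ligand. It had 60.8, 11.4, 53 and 72.3 TPM in the 8-week surgical libraries of rats D, C, G and H, against 47.4, 92.3, 41.7 and 65 TPM in their controls. At 6 weeks rats A, B and E had 145, 44 and 114 TPM on the surgical side, against 90.8, 140 and 135 TPM on the control side. The surgical side was higher in 4 of 7 rats, while rats B and C lay far lower, by -2.30 and -2.55 on the log2 CPM scale. The log2 difference was -0.44 (SE 0.46, 95% interval -1.49 to 0.60, adjusted p = 1, edgeR). It came to -0.11 without rat C, to -0.66 without rat A and to 0.33 without rats B, C and H. Surgical rat C held the highest muscle and the lowest Schwann cell markers, and surgical rat B the spinal cord markers. Their part in the Cntf values was not tested.

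Lif (ENSRNOG00000007002), a cytokine that Schwann cells and muscle are known to release after injury, was near the floor except in a single library. It had 7, 126, 15 and 6 estimated counts in the 8-week surgical libraries of rats D, C, G and H, against 9, 14, 17 and 28 counts in their controls. At 6 weeks it had 21, 22 and 14 counts on the surgical side of rats A, B and E, against 15 counts in each of the 3 controls. The 12 muscle markers summed to 16.4 to 38400 TPM on the surgical and 37.8 to 7180 TPM on the control side, with none at 0. Without surgical rat C, the library with the highest muscle markers, all libraries lay between 6 and 28 counts. Control rat H, with the second highest muscle markers, gave that highest value of 28. Surgical rat E, which came next in muscle markers (1586 TPM), had 14 counts, against 15 in its control. Surgical rat C also held the highest summed fibroblast (7161 TPM) and red blood cell markers (163800 TPM) of all libraries. The part of muscle RNA or of other tissue in these values was not tested. The log2 difference of Lif was 0.26 (SE 0.56, 95% interval -1.02 to 1.55, adjusted p = 1, edgeR; higher in 4 of 7 rats), and it turned to -0.21 without rat C and to 0.65 without rat H.

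Igf1 (ENSRNOG00000004517), a growth factor made by macrophages, fibroblasts and muscle among others, had 14.9, 14.2, 9.91 and 11.6 TPM in the 8-week surgical libraries of rats D, C, G and H, against 10.5, 20.1, 22.7 and 23.4 TPM in their controls. At 6 weeks it had 28.7, 12.7 and 17.1 TPM on the surgical side of rats A, B and E, against 25.7, 39.9 and 21.6 TPM on the control side. The surgical value was the lower in TPM in 5 of 7 rats, and rats A and D were the exceptions. The log2 difference was -0.35 (SE 0.33, 95% interval -1.10 to 0.40, adjusted p = 1, edgeR). It ranged from -0.57 without rat D to -0.09 without rat B, and turned to 0.18 without rats B, C and H.

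Vegfa (ENSRNOG00000019598), which drives vessel growth and is also known to act on neurons, gave the most precise estimate. It had 20.4, 11.2, 14.8 and 19.7 TPM in the 8-week surgical libraries of rats D, C, G and H, against 18.3, 17.6, 21.2 and 17 TPM in their controls. At 6 weeks it had 7.22, 15.8 and 15.3 TPM on the surgical side of rats A, B and E, against 9.54, 8.19 and 15.3 TPM on the control side. The sides overlapped at both times. Its log2 difference was -0.02 (SE 0.11, adjusted p = 1, edgeR; higher in 3 of 7 rats), with a 95% interval of -0.28 to 0.24. Single rats differed by -0.33 to 0.34 on the log2 CPM scale, the narrowest span of the 8 ligands.

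**Figure D2:**
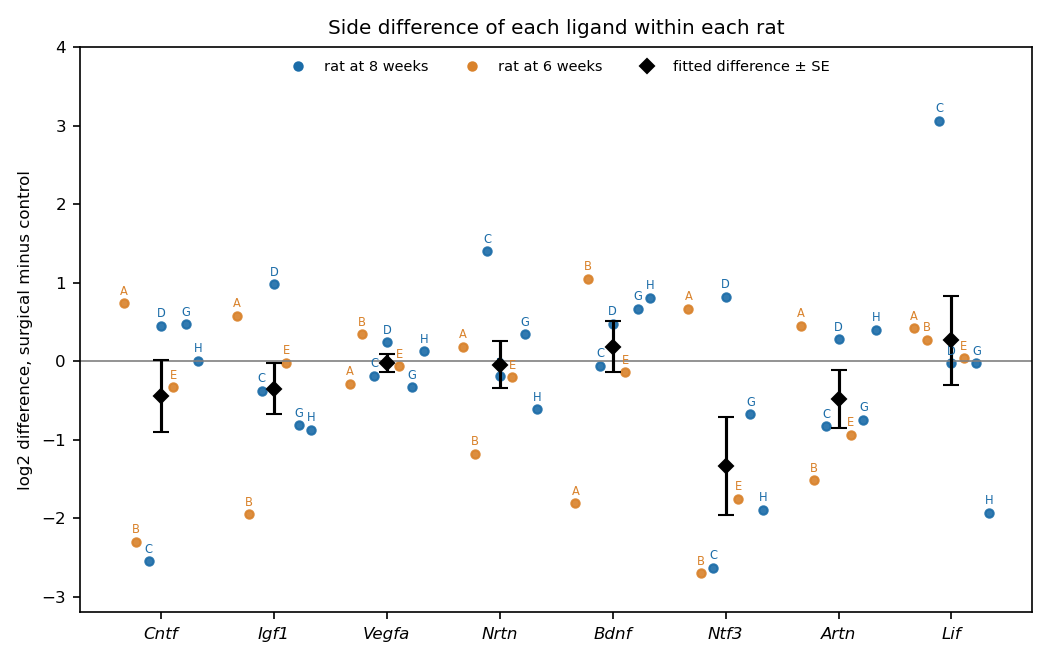
Difference between the sides for each tested ligand, as surgical minus control on a log2 scale (vertical axis). Dots are single rats (log2 CPM) coloured by time and black diamonds are the fitted difference over both times with its SE. Vegfa stays within -0.33 to 0.34, while rats B and C lie lowest for Cntf and Ntf3 and rat C reaches 3.06 for Lif. For Ntf3, rats E, G and H are also lower on the surgical side.

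The promoters of 3 ligands are shown because Cntf and Igf1 had the most negative differences between the times below and Vegfa the steadiest values. They run from 250 bases before to 50 bases after the annotated start in the GRCr8 assembly (RefSeq), which held 16 such windows for 8 of the 9 ligands. Capitals mark matches, on either strand, to the AP-1 motif TGANTCA or to the GC box GGGCGG. The window of Cntf holds a TGAGTCA whose first base lies at -72 from the start, and 7.33% of all 33469 promoters of this length hold a TGANTCA. The first window of Vegfa holds 3 GC boxes, at -84, -73 and -58, and 33.1% of promoters hold at least 1. Igf1 has no match to either motif, and no window of these 3 holds TATAAA (14.2% of promoters) or ACGTG, the core of the hypoxia response element (19.3%). Sequence outside the windows was not searched, so a missing match holds for the windows only. A match is a run of letters and not a measured binding site.
Cntf promoter, chr1:219314486-219314785, minus strand: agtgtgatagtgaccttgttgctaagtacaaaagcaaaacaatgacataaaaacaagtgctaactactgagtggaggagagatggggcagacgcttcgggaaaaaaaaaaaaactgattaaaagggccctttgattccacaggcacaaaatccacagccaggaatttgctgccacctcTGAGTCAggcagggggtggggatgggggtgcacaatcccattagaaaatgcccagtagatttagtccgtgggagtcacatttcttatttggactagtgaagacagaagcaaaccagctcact
Igf1 promoter, chr7:24172282-24172581, plus strand: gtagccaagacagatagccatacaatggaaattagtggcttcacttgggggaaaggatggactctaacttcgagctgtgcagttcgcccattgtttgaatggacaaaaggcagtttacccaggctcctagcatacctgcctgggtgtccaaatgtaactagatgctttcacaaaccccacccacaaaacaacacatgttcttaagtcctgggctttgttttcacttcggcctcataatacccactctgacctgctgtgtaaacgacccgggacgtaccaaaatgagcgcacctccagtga
Vegfa promoter, chr9:22452604-22452903, plus strand: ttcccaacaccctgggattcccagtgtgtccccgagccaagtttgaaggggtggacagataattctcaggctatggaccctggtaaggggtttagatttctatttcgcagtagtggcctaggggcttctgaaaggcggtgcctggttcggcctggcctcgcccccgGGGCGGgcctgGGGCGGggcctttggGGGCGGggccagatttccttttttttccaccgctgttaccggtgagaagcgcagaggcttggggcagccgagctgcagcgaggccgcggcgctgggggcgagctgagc

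The times were compared between different rats, separately on each side. Cntf had the most negative difference of the 8 ligands on both sides, while Igf1 and Ntf3 lay close to each other. On the control side Cntf averaged 61.6 ± 22.8 TPM at 8 weeks (n = 4) and 122 ± 27 TPM at 6 weeks (SD, n = 3). The log2 difference was -1.63 (SE 0.32, unadjusted p = 0.00119, adjusted p = 0.0815, edgeR), and on the CPM scale all 4 libraries at 8 weeks (4.76 to 5.90 log2 CPM) lay below all 3 at 6 weeks (6.61 to 7.44). On the TPM scale the groups overlapped, at 41.7 to 92.3 TPM at 8 weeks and 90.8 to 140 TPM at 6 weeks. Igf1 averaged 19.2 ± 5.95 TPM in the 8-week and 29.1 ± 9.61 TPM in the 6-week controls, with a log2 difference of -1.24 (SE 0.44, adjusted p = 0.128). The differences of Nrtn (-1.06, SE 0.44, adjusted p = 0.155), Ntf3 (-1.23, SE 0.60, adjusted p = 0.188) and Artn (-0.90, SE 0.44, adjusted p = 0.194) were also negative. These shrank to -0.56 for Nrtn and -0.51 for Ntf3 without rat B and to -0.40 for Artn without rat E. In limma on log2(TPM + 1) the values for Nrtn, Ntf3 and Artn were -0.28, -0.25 and -0.092. The median of all genes in that fit was itself 0.44, and relative to it they stood at -0.72, -0.69 and -0.53. Lif (-0.25, SE 0.46), Bdnf (0.19, SE 0.34) and Vegfa (0.17, SE 0.13) were nearer to 0. None of the 8 ligands passed, beside 0.153% of all genes (25 of 16346, 3 higher and 22 lower), with 5108 genes at an unadjusted p under 0.05.

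Which ligands passed on the control side depended on the test. DESeq2 called 2 of 8 ligands, Cntf (-1.60, SE 0.36, adjusted p = 0.00043) and Igf1 (-1.21, SE 0.46, adjusted p = 0.0474), both lower at 8 weeks, where it called 20.1% of all genes. limma on log2(TPM + 1), whose filter removed Lif, called 2 of 7, Cntf (-1.01, adjusted p = 0.0494) and Vegfa (0.74, adjusted p = 0.0496), where it called 24.4% of genes. On that scale the median of all genes was itself shifted by 0.44, and relative to it Vegfa stood at 0.30 and Cntf at -1.45. Without rat E, edgeR called 4 of 8 ligands and 38.3% of all genes. In that fit Cntf (-1.66, adjusted p = 0.0157), Nrtn (-1.35, adjusted p = 0.0221) and Igf1 (-1.45, adjusted p = 0.0346) were lower and Bdnf (0.76, adjusted p = 0.0451) higher at 8 weeks, whereas 0 ligands passed without any of the other rats in turn. With single rats left out, Cntf ranged from -1.86 without rat C to -1.30 without rat B, and Igf1 from -1.48 without rat H to -0.72 without rat B. In limma on log2(TPM + 1) Igf1 came to -0.59 (adjusted p = 0.189), or to -1.03 relative to the median of all genes.

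On the surgical side Cntf and Igf1 again had the most negative differences between the times. Cntf averaged 49.4 ± 26.5 TPM at 8 weeks and 101 ± 51.7 TPM at 6 weeks, a log2 difference of -1.46 (SE 0.63, adjusted p = 0.671, edgeR). It came to -0.82 without rat A. Igf1 averaged 12.7 ± 2.3 TPM in the 8-week and 19.5 ± 8.24 TPM in the 6-week surgical libraries, a log2 difference of -1.19 (SE 0.40, adjusted p = 0.671), and -0.55 without rat A. Ntf3 had -1.12 (SE 0.82, adjusted p = 0.682), and -0.13 without rat A, from a median of 7 counts at each time. Bdnf averaged 4.75 ± 1.68 TPM at 8 weeks and 2.42 ± 1.79 TPM at 6 weeks, with 0.81 (SE 0.56, adjusted p = 0.68), and 0.36 without rat A, whose surgical library held the lowest neuronal markers. None of the 8 ligands passed on this side, beside 0.0% of 16606 genes (1089 at an unadjusted p under 0.05, 8 by DESeq2). No ligand passed the test of whether the side effect differed between the times, where Cntf gave 0.28 (SE 1.00) and Igf1 0.15 (SE 0.72).

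**Figure D3:**
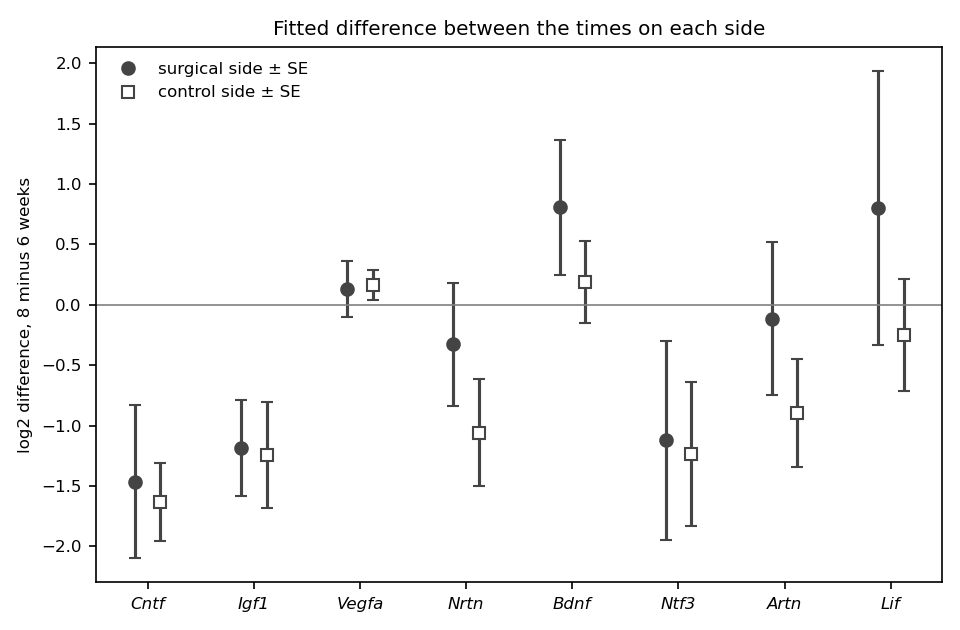
Fitted difference between the times for each tested ligand, as 8 minus 6 weeks on a log2 scale (vertical axis), with its SE. Filled circles are the surgical side and open squares the control side. Cntf, Igf1 and, from few counts, Ntf3 lie below -1 on both sides, while Vegfa lies at 0.13 on the surgical and 0.17 on the control side.

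**Figure D4:**
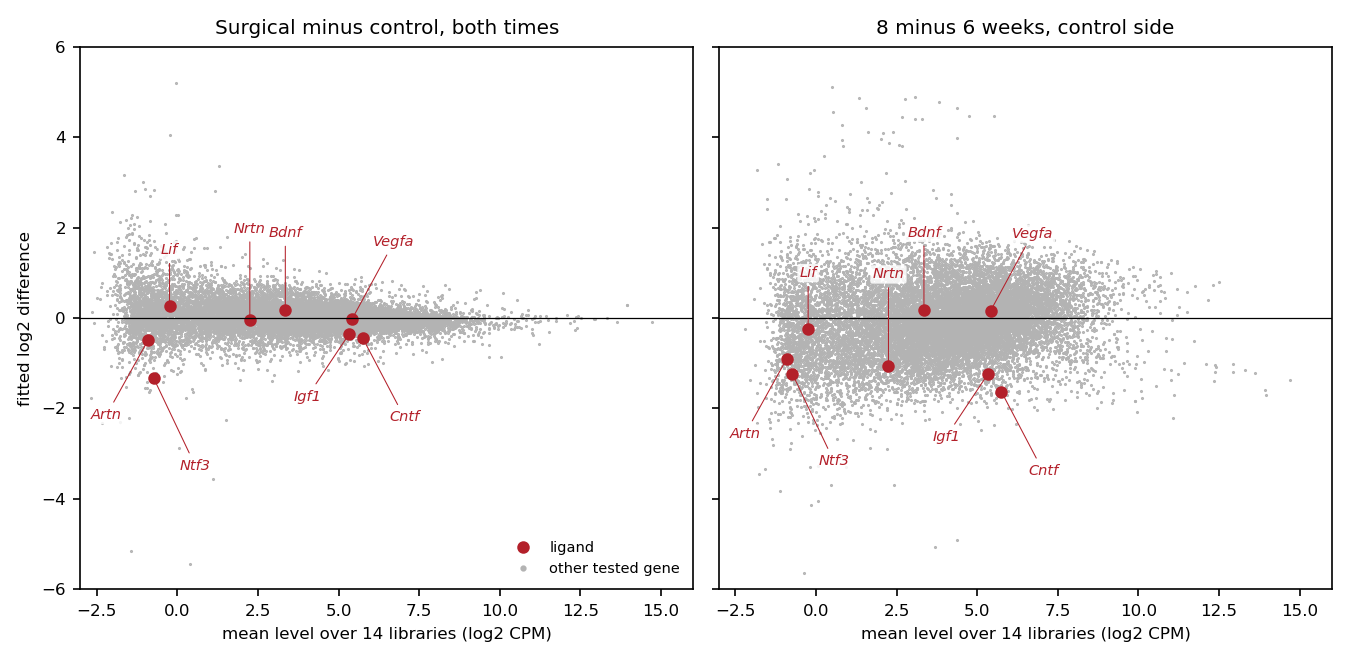
Fitted log2 difference (vertical axis) against mean level over the 14 libraries in log2 CPM (horizontal axis) for all tested genes in grey and the 8 tested ligands in red. The left panel shows surgical minus control over both times and the right panel 8 minus 6 weeks on the control side, where 5 genes beyond 6 in size are not drawn. All 8 ligands lie within the cloud of other genes, with Cntf at -1.63 in the right panel.

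Marker lists of several cell types, but not of all, moved between the times too. On the control side the satellite glia markers had a median log2 difference of -0.07 (4 positive, 6 negative), beside -0.06 for all genes. Of the endothelium and pericyte markers 9 of 11 were negative there (median -0.36). Schwann cell markers averaged 7.36 ± 0.82 log2 CPM in surgical libraries at 8 weeks and 8.44 ± 0.46 at 6 weeks, and 7.54 ± 0.28 at 8 weeks and 8.45 ± 0.21 at 6 weeks in controls. On the control side, 12 of 12 Schwann cell, 12 of 12 macrophage and 10 of 10 fibroblast markers had negative differences, and 16 of 16 neuronal markers positive ones, with 0 called. All 6 tested red blood cell markers were also negative there (median -1.51, against -0.87 for the Schwann cell markers), and all 12 skeletal muscle markers positive (median 4.47). Of the 8-week controls, rat H summed to 7180 TPM of muscle markers and the other 3 to 41.9 to 69.3 TPM, against 37.8 to 103 TPM in the 6-week controls. Between the sides at 8 weeks, 6 of 6 red blood cell (median 0.92) and 12 of 12 macrophage markers (median 0.29) had positive differences. These are counts of markers, and the rats were split. The macrophage mean was higher on the surgical side in rats C (5.94 against 4.12 log2 CPM) and G (4.79 against 4.12). It was lower in rats D (4.31 against 4.42) and H (4.11 against 5.17). The red blood cell mean was also higher in rats C and G and lower in rats D and H. At 8 weeks 11 of 12 Schwann cell (median -0.16) and 10 of 11 endothelium and pericyte markers (median -0.15) were negative. So were 9 of 10 satellite glia markers (median -0.25). The Schwann cell mean was lower on the surgical side in rat C alone (6.14 against 7.9 log2 CPM). The satellite glia mean was lower in rats C and G, and the endothelium and pericyte mean in rats C, G and H. Over both times 16 of 16 neuronal markers were negative (median -0.20). All 12 tested muscle and all 12 tested spinal cord markers were positive (medians 0.95 and 1.06). By rat, the neuronal mean was lower on the surgical side in rats A, C, D and G and higher in B, E and H. The muscle mean was higher in rats A, C, E and G and lower in B, D and H. The spinal cord mean was higher in rats A, B, D, E and G and lower in C and H. In rat B the spinal cord mean was 6.09 on the surgical side against 1.21 log2 CPM. The part of these lists in the side differences of the ligands was not tested. The summed level of the Schwann cell markers was 1818 to 8733 TPM at 8 weeks and 7944 to 12960 TPM at 6 weeks on the surgical side, and 4998 to 9218 TPM at 8 weeks and 8895 to 10200 TPM at 6 weeks on the control side. The macrophage markers summed to 1019 to 3243 TPM at 8 weeks and 1639 to 4298 TPM at 6 weeks on the surgical side, and to 849.3 to 2201 TPM at 8 weeks and 1186 to 3781 TPM at 6 weeks on the control side. Fibroblast markers summed to 644.9 to 7161 TPM at 8 weeks and 795.5 to 2684 TPM at 6 weeks on the surgical side, and to 463.8 to 1366 TPM at 8 weeks and 1362 to 2114 TPM at 6 weeks on the control side. Red blood cell markers summed to 32730 to 163800 TPM at 8 weeks and 39960 to 160000 TPM at 6 weeks on the surgical side, and to 26670 to 103100 TPM at 8 weeks and 30620 to 153900 TPM at 6 weeks on the control side. No marker of these lists was at 0 in all libraries of a group. The part of these cell types in the differences of Cntf and Igf1 between the times was not tested.

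Cntf and Bdnf were also set against the marker list of their known source in the same library. This measure was chosen after the values were seen and carries no test. Cntf less the Schwann cell mean was -2.47 ± 0.22 (log2, n = 4) in surgical libraries at 8 weeks and -2.14 ± 0.72 (n = 3) at 6 weeks, with ranges of -2.79 to -2.30 and -2.95 to -1.61 that overlapped. In control libraries it was -2.25 ± 0.23 at 8 weeks and -1.51 ± 0.29 at 6 weeks, with ranges of -2.48 to -2.0 and -1.82 to -1.23 that did not overlap. Bdnf less the neuronal mean was -5.61 ± 0.07 in 8-week surgical and -6.25 ± 0.32 in 8-week control libraries, with ranges of -5.67 to -5.51 and -6.59 to -5.85 that did not overlap. At 6 weeks the same measure was -5.51 ± 0.23 in surgical and -5.41 ± 0.23 in control libraries, which overlapped.

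**Figure D5:**
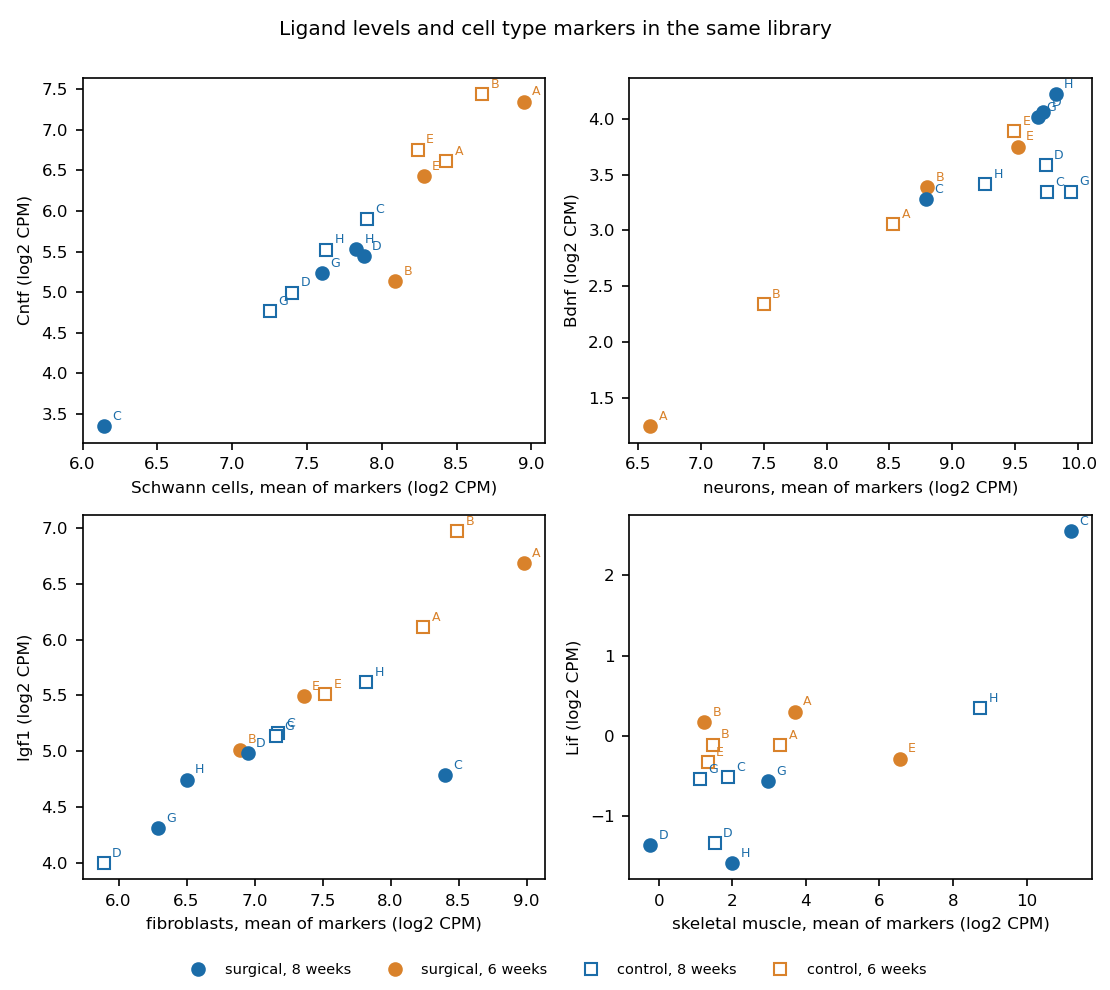
Level of 4 ligands (vertical axes, log2 CPM) against the mean level of a marker list in the same library (horizontal axes, log2 CPM), with filled circles for surgical and open squares for control libraries and letters for rats. Cntf is drawn against Schwann cells, Bdnf against neurons, Igf1 against fibroblasts and Lif against skeletal muscle. Surgical rat C is lowest for Cntf and Schwann cell markers and highest for Lif and muscle markers, and surgical rat A is lowest for Bdnf and neuronal markers.

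Other ligand, receptor and response genes gave no call between the sides. Of 20 other ligand genes, 16 were tested and 0 called (median log2 difference over both times -0.13, 5 positive and 11 negative). This list reaches beyond the families above, and Ptn, Mdk and Manf are from outside them. Ptn (pleiotrophin) averaged 253 ± 107 TPM on the surgical and 333 ± 63.5 TPM on the control side, a log2 difference of -0.54 (SE 0.26, adjusted p = 1, edgeR; higher in 2 of 7 rats). Mdk (midkine) stood at -0.46 (SE 0.27), Manf, a factor of the endoplasmic reticulum, at -0.05 (SE 0.15), and Pgf, a relative of Vegfa, at -0.38 (SE 0.19). On the control side 13 of 15 tested other ligands had negative differences between the times (median -0.82, 0 called), among them Mdk with -1.33 (SE 0.26, adjusted p = 0.0815).

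Of 24 receptor genes 23 were tested and 0 called (median -0.02 between the sides over both times, against 0.00038 for all genes). Gfra2, the co-receptor of Nrtn, averaged 17.9 ± 8.38 TPM on the surgical and 26.1 ± 14.9 TPM on the control side, with -0.48 (SE 0.21, adjusted p = 1, edgeR; higher in 1 of 7 rats). Ret stood at -0.25 (SE 0.39), Ngfr at -0.10 (SE 0.37) and Igf1r at 0.32 (SE 0.19). Between the times on the control side the receptors lay the other way from the ligands: 20 of 23 were positive, with a median of 0.54 against -0.98 for the 8 tested ligands and -0.06 for all genes. Ret had 1.71 there (SE 0.48, adjusted p = 0.105) and Ngfr 1.25 (SE 0.54, adjusted p = 0.164). Ret is also on the list of neuronal markers.

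Of 23 genes for processing and binding of these ligands, 22 were tested and 0 called (median 0.06 between the sides). The list had 12 positive and 10 negative differences. Of the genes named from it, Igfbp6, a binding protein of insulin-like growth factors, averaged 335 ± 267 TPM on the surgical and 548 ± 227 TPM on the control side (log2 difference -0.98, SE 0.46), Igfbp2 44.1 ± 18.3 and 75.7 ± 34.9 TPM (-0.80, SE 0.31) and Igfbp3 9.67 ± 2.58 and 14.6 ± 6.54 TPM (-0.55, SE 0.24). Igfbp7 stood at -0.55 (SE 0.33) and Cpe, a peptidase that sorts pro-Bdnf, at -0.19 (SE 0.15). For each Igfbp gene named, 2 of 7 rats had the higher value on the surgical side, and each gene had an adjusted p of 1 (edgeR).

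Hypoxia response genes, a group known to be induced together with Vegfa at low oxygen, were 18 of 18 tested with 0 called and a median of 0.07 between the sides. Ldha stood at -0.0095 (SE 0.20), Pgk1 at 0.08 (SE 0.17), Bnip3 at -0.44 (SE 0.27), Pfkfb4 at 0.39 (SE 0.17) and Adm (adrenomedullin) at -0.69 (SE 0.34). Of 11 axon injury genes 10 were tested and 0 called, with 8 positive and a median of 0.25. In that list Sox11 stood at 0.82 (SE 0.28), Stat3, a mediator of Il6st signals, at 0.04 (SE 0.14), Gap43 at -0.10 (SE 0.26) and Npy at -0.78 (SE 0.33). Vip stood at 4.05 (SE 0.94; higher in 6 of 7 rats, unadjusted p = 0.00213, adjusted p = 1, edgeR), the largest of the genes named here. It averaged 3.83 ± 2.66 TPM on the surgical and 0.179 ± 0.137 TPM on the control side. The filter removed it among the control libraries alone, so this size rests on a control level near the floor.

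Genes with the pattern most like each ligand were found by Pearson's r of log2 CPM over the 14 libraries. The points share rats, depth and tissue content, so r is a description only. For Cntf they were Pmp22 and Cnmd (r = 0.986 each), the first a gene of the Schwann cell list. For Igf1 they were Lima1 (0.98) and Clic2 (0.978), for Nrtn RT1-N3 (0.97) and Cebpb (0.965), and for Bdnf Kcnv1 and Lexm (0.95 each). For Lif they were Ctsk (0.941) and Ptges3l (0.94), and for Ntf3 Meox2 (0.938) and Tmem254 (0.916). The values were lower for Vegfa, with Phgdh (0.897) and Slc22a17 (0.894), and for Artn, with Ptgr3 (0.848) and RGD1564804 (0.845).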

How the data were processed

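RNA was measured in 14 ganglion libraries of 7 rats, which the sample titles assign to a rat, side and time. Letters C and D are exchanged between titles and library names on both sides, which leaves each pair intact, and the letters of the titles were used. The labels name polyA RNA, and their extraction protocol names ribosomal depletion. For each gene the authors deposited an estimated count and a TPM value. Per the submitters' processing notes the tools were FastQC, Trim Galore, Salmon and DESeq2, with no version or order. The genome build is not given in the sources used here. The deposited estimated counts were whole numbers, and no pair of libraries was identical.

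The main test was edgeR's quasi-likelihood F test (edgeR 4.0.16, R 4.3.3, robust dispersion, TMM scaling) on genes that filterByExpr kept at a minimum count of 10. Two-sided P values were adjusted by Benjamini-Hochberg over all genes tested, with a threshold of 0.05. The fit of the sides used all 14 libraries and a block for each rat, and the times were compared between different rats. The pairing comes from the labels, since both libraries of a pair are from the same rat. The correlation of deviations from the group means over 17035 genes was 0.75, 0.26, 0.13, -0.085, -0.12, -0.31 and -0.41 in rats E, A, G, D, B, H and C. SE values are the size of the log2 difference divided by the square root of F, and log2 CPM levels used a prior count of 2. A ligand was too low to judge where the filter removed it or its median count over the 14 libraries was under 10.

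Alternatives were DESeq2 1.42.0, its size factors, no filter, a filter at 1 CPM, no robust dispersion, no replicate block, limma 3.58.1 on log2(TPM + 1) and log2(TPM + 0.1), each rat left out, and rats B, C and H left out. The members, lists and tests were chosen with earlier results of these data known. From each list the 3 tested genes with the highest mean TPM and the 2 with the smallest p between the sides are named, and for each tested ligand the 2 genes of at least 1 TPM with the highest r. A receptor gene that this rule names is not reported here. The test was checked on simulated data. Promoters came from RefSeq (GRCr8), and no coordinate of the deposited files was used.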

Additional observations from a re-analysis of the deposited data

Results flagged for a closer look

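Single values stood far from the rest of their group in 3 of 24 groups of 4 to 7 values examined for the 8 tested ligands, where the gap to the nearest value was above Dixon's 95% limit. Chance flags about 1 in 20 groups. Cntf in surgical rat C at 8 weeks was 3.35 log2 CPM, far below the other 3 libraries of that group (5.23 to 5.53). That library also held the lowest Schwann cell and the highest skeletal muscle markers. Bdnf differed between the sides by -1.81 (surgical minus control, log2 CPM) in rat A, below the other 6 rats (-0.14 to 1.05). Its surgical library had the lowest neuronal markers. Ntf3 in control rat D at 8 weeks was -1.77 log2 CPM, from 6 counts, below the other 3 libraries of that group (-0.27 to -0.10).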

How the results depend on the processing

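No ligand passed the test between the sides under any alternative run, with the rat as a block or with no replicate block, and 21 of the 48 ligand differences (8 ligands, 6 comparisons) kept their sign throughout. That count covers only the alternatives that gave a value. For Ntf3 between the times on the surgical side these were 8, against 16 for Cntf. The size of the differences between the sides rests on single rats, and Ntf3, Artn and Lif are limited by counts of 1 to 126.

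Counts of called genes changed most on the control side between the times, 25 in edgeR. They were 3133 with DESeq2, 3980 with limma on log2(TPM + 1), 15 with limma and no filter, 0 without rats B, C and H, and from 0 to 6388 over the rats left out in turn, the highest without rat E. The count of ligands called there was 2 with DESeq2 and 2 with limma, and 0 to 4 over the rats left out. Elsewhere DESeq2 called 6 genes between the sides over both times, 44 at 6 weeks, 4 at 8 weeks, 5 for the difference of the side effects and 8 between the times on the surgical side, where edgeR called 0. With no replicate block edgeR called 2 genes at 6 weeks. limma called 8 (0.1 added), 3 (1 added) and 3 (no filter) between the times on the surgical side. For these counts the cause was not tested.

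Without rats B, C and H these differences turned sign. Between the sides over both times they were -0.13 for Bdnf, 0.038 for Nrtn, 0.33 for Cntf and 0.18 for Igf1. At 6 weeks they were 0.20 for Cntf and 0.28 for Igf1, and at 8 weeks 0.036 for Ntf3, -0.030 for Lif, 0.46 for Cntf and 0.078 for Igf1. The difference of the side effects came to -0.20 for Igf1 and 0.13 for Vegfa. Between the times Bdnf came to -0.071 on the control side and Lif to -1.07 on the surgical side. The cause was not tested.

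Between the sides at 6 weeks, Vegfa (-0.0025 in edgeR) came to 0.014 with DESeq2, 0.014 with its size factors, 0.0011 with a filter at 1 CPM, 0.0087 with no filter and 0.017 with no replicate block. It came to 0.17 (1 added, with and without the filter) and 0.18 (0.1 added) in limma. The median of all genes in these limma fits was itself 0.16 with the filter and 0.075 without it (1 added), and 0.20 (0.1 added). Less that median, Vegfa came to 0.0063, 0.092 and -0.021 in the same order. Other signs turned by limma were those of Bdnf at 6 weeks (0.033 with and without the filter) and Artn between the times on the surgical side (0.042 with 1 added, with and without the filter, and 0.036 with 0.1 added). Less the median of all genes in the same fit, Bdnf came to -0.13 with and -0.042 without the filter. Artn came to -0.16 with and -0.0035 without the filter (1 added), and to -0.22 with 0.1 added. Lif without the filter came to 0.059 between the times on the control side, and to -0.074 less the median of all genes. In the difference of the side effects limma gave -0.20 for Ntf3 (0.1 added), 0.076 for Lif (no filter), and -0.13 (0.1 added) and -0.11 (1 added, with and without the filter) for Cntf. Less the median of all genes in the same fit, Ntf3 came to 0.09 and Lif to 0.19. Cntf came to 0.16 (0.1 added), 0.12 (1 added, with the filter) and -0.0027 (without it). Lif came to 1.06 there with no replicate block.

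Signs also turned with single rats left out. Over both times the sides gave -0.28 to 0.16 for Nrtn, -0.21 to 0.65 for Lif and -0.077 to 0.029 for Vegfa. At 6 weeks they gave -0.96 to 0.45 for Bdnf, -1.31 to 0.21 for Cntf, -0.99 to 0.29 for Igf1 and -0.17 to 0.14 for Vegfa. At 8 weeks they gave -0.16 to 0.53 for Nrtn, -0.76 to 1.12 for Lif, -0.64 to 0.31 for Cntf and -0.13 to 0.061 for Vegfa. The difference of the side effects ran from -0.70 to 1.27 for Ntf3, -1.03 to 0.85 for Lif, -0.52 to 1.00 for Cntf, -0.57 to 0.71 for Igf1 and -0.17 to 0.14 for Vegfa. Between the times Bdnf ran from -0.10 to 0.76 on the control side. On the surgical side Artn ran from -0.50 to 0.17, Nrtn from -0.72 to 0.21, Lif from -1.34 to 1.14 and Vegfa from -0.031 to 0.21.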
